A study of Mus musculus with 32 samples.

Results

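Transcripts of fat cells were followed in whole mouse bladders through 10 genes, namely Adipoq, Lep, Cfd, Retn, Plin1, Cidec, Plin4, Fabp4, Lipe and Pck1, out of the 32285 genes of the count table. They were picked by symbol as well-known genes of white adipocytes, and each symbol matched a single Ensembl identifier. RNA had been sequenced from 32 whole bladders of female C57BL/6 mice of the NIA colony, in 6 groups that carried no transgene. Young (2 months, n = 6), middle-aged (10 months, n = 5) and untreated old mice (26 months, n = 6) were not gavaged. The other old mice, also 26 months of age when examined, were gavaged monthly on 3 consecutive days between 21 and 26 months. They received water (n = 5), a vehicle of ethanol (10%), polyethylene glycol 400 (30%) and Phosal 50 PG (60%) (n = 4), or D + Q in that vehicle (n = 6), which is dasatinib at 5 mg/kg/day with quercetin at 50 mg/kg/day, a combination used to remove senescent cells. The comparisons across age ask how these transcripts differ over the life of the mouse, and those among the old groups ask how far gavage, vehicle and drug each shift them.

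White adipocytes store triglyceride in a large lipid droplet and release hormones, the adipokines, that report the state of the fat stores. Perilipins coat the droplet and control the access of lipases to it, and the nuclear receptor PPARG together with C/EBP factors switches on most genes of the mature fat cell. The bladder wall is built mainly of urothelium, connective tissue and the detrusor smooth muscle, and fat lies in and around its outer coat. Several of the 10 genes are not restricted to adipocytes. Fabp4 is also made by capillary endothelium and macrophages, Plin4 by skeletal and cardiac muscle, Lipe by steroid-producing tissues, and Pck1 by liver and kidney.

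The upstream sequences of 5 genes are shown, those in which a motif named below was found. The levels of Adipoq, Plin1, Cidec and Lep varied together from bladder to bladder, whereas that of Plin4 did not. Cfd, Retn and Pck1 also varied with Adipoq, but their entries held none of these motifs, nor did the outer entry of Cidec. Each sequence is the 250 bases before the annotated start, written 5′ to 3′ on the strand of the gene, from RefSeq on GRCm38.p6 (mm10). The intervals are chr16:23146286-23146535 on the plus strand for Adipoq, chr7:79732777-79733026 on the minus strand for Plin1, chr6:113434765-113435014 on the minus strand for the inner of the listed starts of Cidec, chr6:29059971-29060220 on the plus strand for Lep, and chr17:56109783-56110032 on the minus strand for Plin4. Capitals mark a C/EBP core (TTGCNNAA) in Plin1, Cidec and Lep, and a CCAAT box on either strand in Adipoq and Plin4.
Adipoq: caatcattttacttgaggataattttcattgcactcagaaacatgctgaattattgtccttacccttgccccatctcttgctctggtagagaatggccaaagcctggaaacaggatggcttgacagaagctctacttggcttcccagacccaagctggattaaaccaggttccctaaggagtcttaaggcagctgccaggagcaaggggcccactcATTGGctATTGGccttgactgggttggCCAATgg
Plin1: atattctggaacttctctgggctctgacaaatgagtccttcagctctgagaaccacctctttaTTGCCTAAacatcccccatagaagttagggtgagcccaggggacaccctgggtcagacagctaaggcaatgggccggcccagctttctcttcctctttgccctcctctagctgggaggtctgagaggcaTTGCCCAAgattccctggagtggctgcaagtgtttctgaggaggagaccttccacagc
Cidec: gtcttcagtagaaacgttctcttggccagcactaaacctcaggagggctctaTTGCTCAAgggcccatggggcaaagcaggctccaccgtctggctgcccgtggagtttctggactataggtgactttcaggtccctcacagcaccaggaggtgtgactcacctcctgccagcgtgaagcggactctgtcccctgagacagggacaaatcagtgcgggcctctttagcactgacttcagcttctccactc
Lep: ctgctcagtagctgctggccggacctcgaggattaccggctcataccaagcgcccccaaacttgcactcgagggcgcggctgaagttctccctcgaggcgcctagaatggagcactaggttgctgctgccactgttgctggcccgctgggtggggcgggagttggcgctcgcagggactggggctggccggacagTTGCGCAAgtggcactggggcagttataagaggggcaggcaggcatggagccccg
Plin4: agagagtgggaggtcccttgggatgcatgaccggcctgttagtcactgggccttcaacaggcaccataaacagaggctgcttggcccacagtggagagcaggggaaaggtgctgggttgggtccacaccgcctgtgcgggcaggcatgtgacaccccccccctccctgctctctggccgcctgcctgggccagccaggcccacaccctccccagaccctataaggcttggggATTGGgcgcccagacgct
Both strands were searched for 5 motifs in the 11 promoter entries of the 9 members that have one, and in all 32851 promoters of the table. The C/EBP core occurred in 3 of the 11 entries, at -187 and -58 bases from the start of Plin1, -198 of Cidec and -55 of Lep, against 9.56% of all promoters. CCAAT occurred in 2 of the 11, with 3 copies upstream of Adipoq and 1 upstream of Plin4, against 33.8% of all promoters. The nuclear receptor hexamer AGGTCA, a direct repeat of it with 1 base between the copies, and TATAAA were in none of the 11, and in 14.0%, 0.0335% and 12.4% of all promoters, respectively. The repeat contains the hexamer, so these counts overlap. Such matches describe letters within these windows only.

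Total counts ranged from 15088372 to 52650259 per bladder, with a median of 34074787. A gene with 3 counts, taken as the limit of detection, therefore stood at 0.0570 to 0.199 CPM, that is, counts scaled to a common library size. This limit covers counting error only. CPM values carry TMM factors and compare a gene between bladders, whereas TPM values are also divided by exon length and are used to compare genes. The labels name no batch, and nothing in them gives the origin of a bladder beyond its group, so the p-values measure the spread between these bladders. Summed over 8 markers each, urothelium stood at 3811 to 4980 CPM and detrusor smooth muscle at 26470 to 41910 CPM per bladder, with no marker at 0 in any bladder. In bulk samples a smaller number of fat cells and less RNA per fat cell cannot be told apart.

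Adipoq encodes adiponectin, an adipokine that raises insulin sensitivity and is made almost only by adipocytes (ENSMUSG00000022878, chromosome 16 of mm10, 23146536 to 23158028). It ranged from 0 counts in young bladder 4 to 788 counts, or 16.8 CPM, in D + Q-treated old bladder 6. Young bladders had 0 to 14.2 CPM (median 3.99), untreated old bladders 1.92 to 14.99 CPM (median 9.12) and D + Q-treated old bladders 0.410 to 16.8 CPM (median 4.65). The young and D + Q-treated groups thus held bladders with almost no Adipoq beside a bladder with more than 14 CPM, and the lowest untreated old bladder, with 62 counts, was well above the limit of detection. Middle-aged bladders were closer together, at 3.44, 6.11, 8.83, 3.08 and 6.45 CPM. Water-treated old bladders had 0.263, 6.73, 2.87, 6.15 and 1.96 CPM, and vehicle-treated old bladders 0.610, 2.03, 12.3 and 10.6 CPM. The highest bladder exceeded the lowest 2.87-fold in the middle-aged group, 7.81-fold in the untreated old group, 20.1-fold with vehicle, 25.6-fold with water and 41.0-fold with D + Q. In the young group the fold was at least 79.8, computed against 3 counts in the bladder at 0. The groups overlapped in each of the 9 comparisons.

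The other adipokine genes varied in the same manner. Cfd, which encodes adipsin (complement factor D), an activator of the alternative complement pathway (ENSMUSG00000061780, chromosome 10, 79890853 to 79892655), ran from 1.31 CPM in water-treated old bladder 1 to 103.8 CPM in untreated old bladder 6, a 79.0-fold span. Retn, the gene of resistin, a hormone of mouse fat that opposes insulin (ENSMUSG00000012705, chromosome 8, 3655770 to 3660110), ran from 0 to 7.62 CPM, with its top in vehicle-treated old bladder 3. Lep encodes leptin, the hormone that signals fat mass to the brain (ENSMUSG00000059201, chromosome 6, 29060220 to 29073877). It was the scarcest of the 10 with 0 to 93 counts, or 0 to 2.68 CPM. It had 0 counts in 4 bladders and at most 3 counts in 6, so its lowest values were not resolved at this depth.

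Among genes of the lipid droplet, Plin1 and Cidec followed Adipoq whereas Plin4 did not. Plin1 encodes perilipin 1, the main coat protein of the adipocyte droplet and gatekeeper of lipolysis (ENSMUSG00000030546, chromosome 7, 79720218 to 79732903), and ranged from 0.0598 to 11.1 CPM. Cidec, whose product fuses droplets into a larger one (ENSMUSG00000030278, chromosome 6, 113424634 to 113435760), ranged from 0.179 to 16.5 CPM. Plin4 encodes perilipin 4, a coat protein of nascent droplets (ENSMUSG00000002831, chromosome 17, 56100591 to 56109803). It stood between 186.4 and 279.6 CPM in all 32 bladders, a span of 1.5-fold. The locus of Plin4 overlaps that of Hdgfl2 on the other strand, and the strand setting of the counting was not given in the sources used here.

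The genes of fatty acid handling were split as well. Fabp4, a cytosolic fatty acid carrier (ENSMUSG00000062515, chromosome 3, 10204088 to 10208576), stood between 222.5 and 403.2 CPM, a 1.81-fold span. Lipe encodes hormone-sensitive lipase, which cleaves diglyceride during fat mobilization (ENSMUSG00000003123, chromosome 7, 25379527 to 25398710, overlapping 4732471J01Rik on the other strand). It stood between 20.4 and 37.5 CPM, a 1.84-fold span. Pck1, whose product makes the glycerol backbone of triglyceride in fat and glucose in liver (ENSMUSG00000027513, chromosome 2, 173153048 to 173159273), ran from 0.0526 to 12.5 CPM, with at most 3 counts in 3 bladders.

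**Figure D1:**
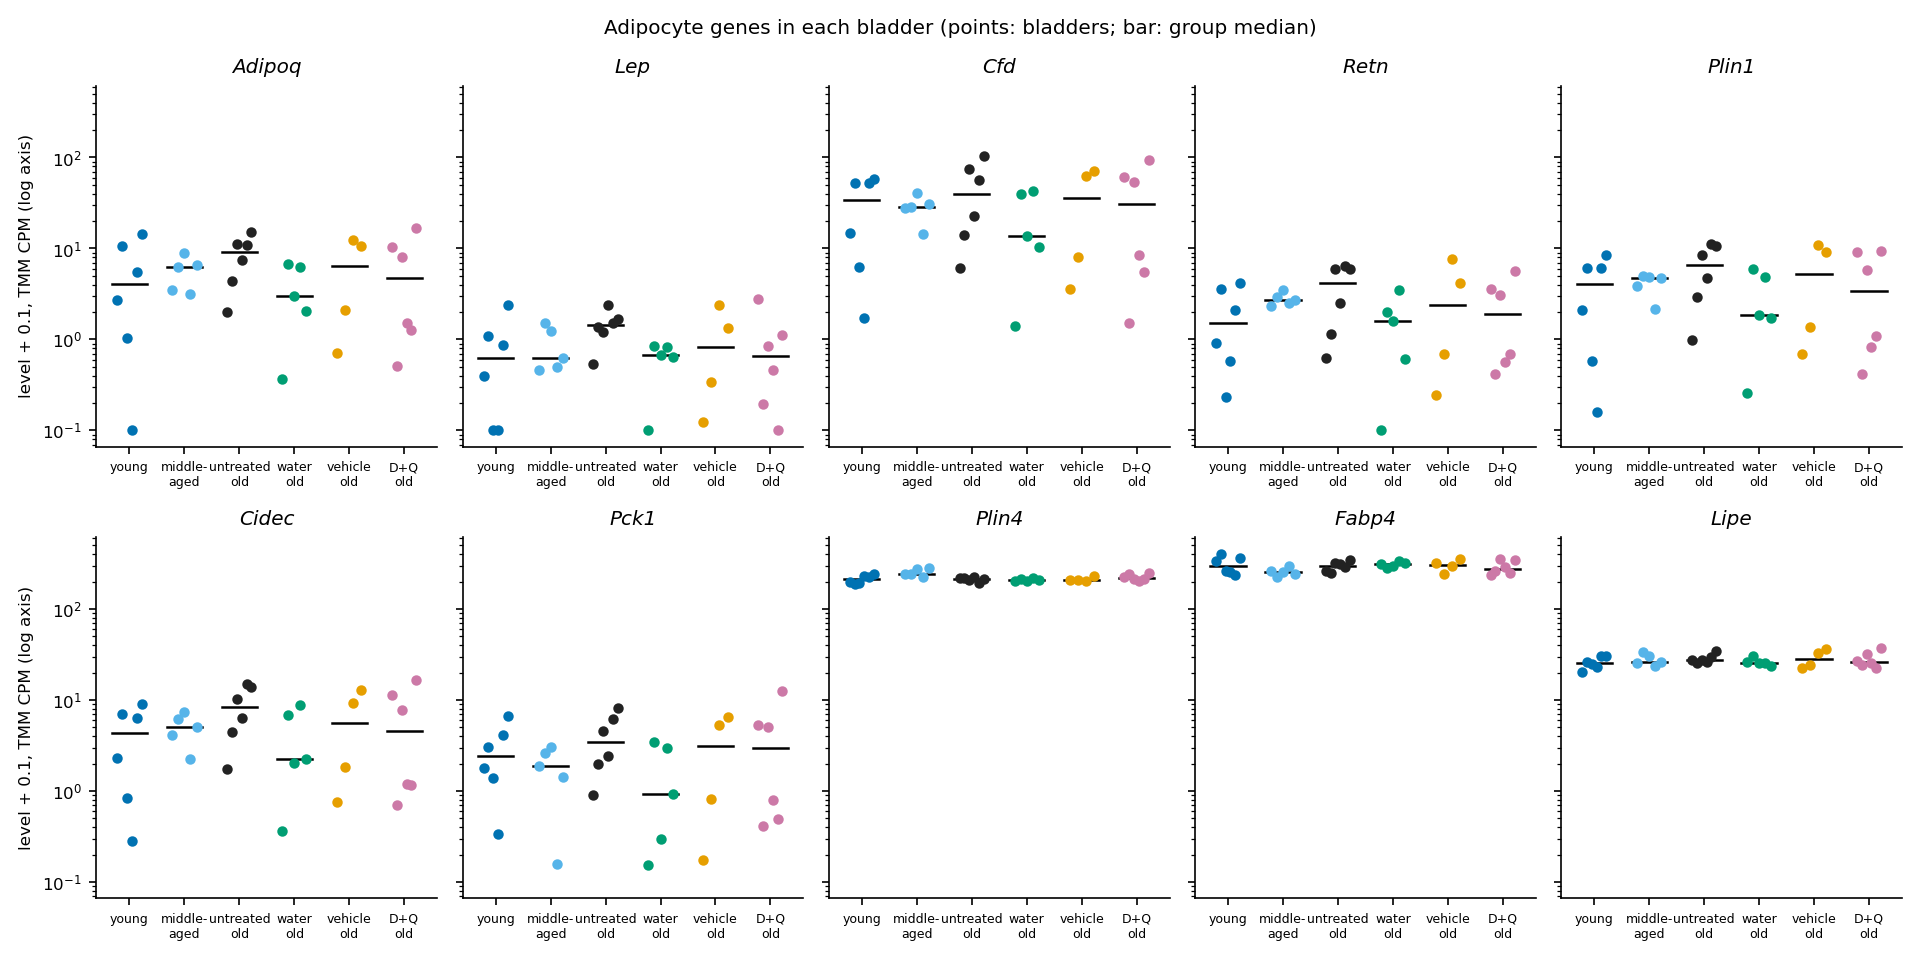
Level of each adipocyte gene (TMM-scaled CPM plus 0.1, log axis) in every bladder of the 6 groups, with points for bladders and bars for group medians. Adipoq, Lep, Cfd, Retn, Plin1, Cidec and Pck1 spread widely within groups, while Plin4, Fabp4 and Lipe stay within a span of 1.84-fold over all 32 bladders.

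Per length, Fabp4 was the most abundant of the 10, with a median of 223.3 TPM, followed by Plin4 with 118.2 TPM and Cfd with 107.6 TPM. The ranges of Fabp4 (180.0 to 320.4 TPM) and Plin4 (103.8 to 154.9 TPM) did not overlap. Those of Plin4 and Cfd (4.89 to 355.4 TPM) did. Below them came Lipe (median 15.5 TPM), Adipoq (14.8 TPM), Cidec (10.5 TPM), Retn (5.08 TPM), Plin1 (3.47 TPM), Pck1 (2.16 TPM) and Lep (0.739 TPM), and each of these overlapped its neighbours in the order. Plin4 and Fabp4 together made up 74.3% to 95.1% of the summed CPM of the 10 genes. The group means of that sum lay between 582.5 ± 43.8 CPM for the water-treated (SD, n = 5) and 615.2 ± 89.1 CPM for the untreated old bladders (SD, n = 6), and these differed by less than either SD.

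The 10 genes thus fell into a set of 7 that varied widely and a set of 3 that varied less, a division made here on their values. The 3 are called steady only in relation to the 7. The standard deviation between bladders of a group, on log2(CPM + 0.1), was 1.47 (Lep) to 1.89 (Cfd) for the 7, and 0.115 for Plin4, 0.222 for Fabp4 and 0.227 for Lipe. Over the 15054 genes with a mean of at least 1 CPM its median was 0.136, and 99.1% to 99.5% of those genes had a smaller value than the 7. Plin4 exceeded only 38.5% of them, and Fabp4 and Lipe 74.5% and 75.4%. Lep, with a mean under 1 CPM, was set against the same genes, and genes of like level were not ranked apart.

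The 7 varying genes moved together. Over the 32 bladders Adipoq correlated with Plin1 (Pearson r = 0.979, Spearman rho = 0.961), Cidec (r = 0.974, rho = 0.967), Cfd (r = 0.959, rho = 0.965), Lep (r = 0.894, rho = 0.861), Retn (r = 0.885, rho = 0.960) and Pck1 (r = 0.838, rho = 0.916). Lipe followed less closely (r = 0.676, rho = 0.779), and Fabp4 (r = 0.301, rho = 0.359) and Plin4 (r = 0.154, rho = 0.193) followed least. With the 2 bladders farthest from the median of Adipoq left out, r was 0.844 to 0.975 for the 6 varying partners and 0.726, 0.343 and 0.208 for Lipe, Fabp4 and Plin4. With values centred on group means, it was 0.877 to 0.977 for the same 6, and 0.664, 0.433 and 0.109 for the other 3. These coefficients are given as a description, without a test, since both values of a pair come from the same library and share its depth.

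The counts of Plin1, Cidec and Cfd kept a narrower proportion to those of Adipoq than their levels spanned. Over the 31 bladders with any Adipoq count, the ratio of Cidec to Adipoq counts lay between 0.626 and 1.46, that of Plin1 between 0.468 and 1.11, and that of Cfd between 3.10 and 9.85. The ratio of Plin4 to Adipoq counts ran from 14.2 to 769 over the same bladders. Pck1 departed from its partners in single bladders. In middle-aged bladder 4 it had 0.0566 CPM, which is 0.0183 counts per Adipoq count against a median of 0.441, while Adipoq, Cfd and Plin1 stood there at 3.08, 14.2 and 2.04 CPM. In water-treated old bladder 3 it had 0.199 CPM, or 0.0693 counts per Adipoq count. Retn was found in young bladder 4 at 0.478 CPM although that bladder had no Adipoq count, which allows up to 0.178 CPM of Adipoq.

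**Figure D2:**
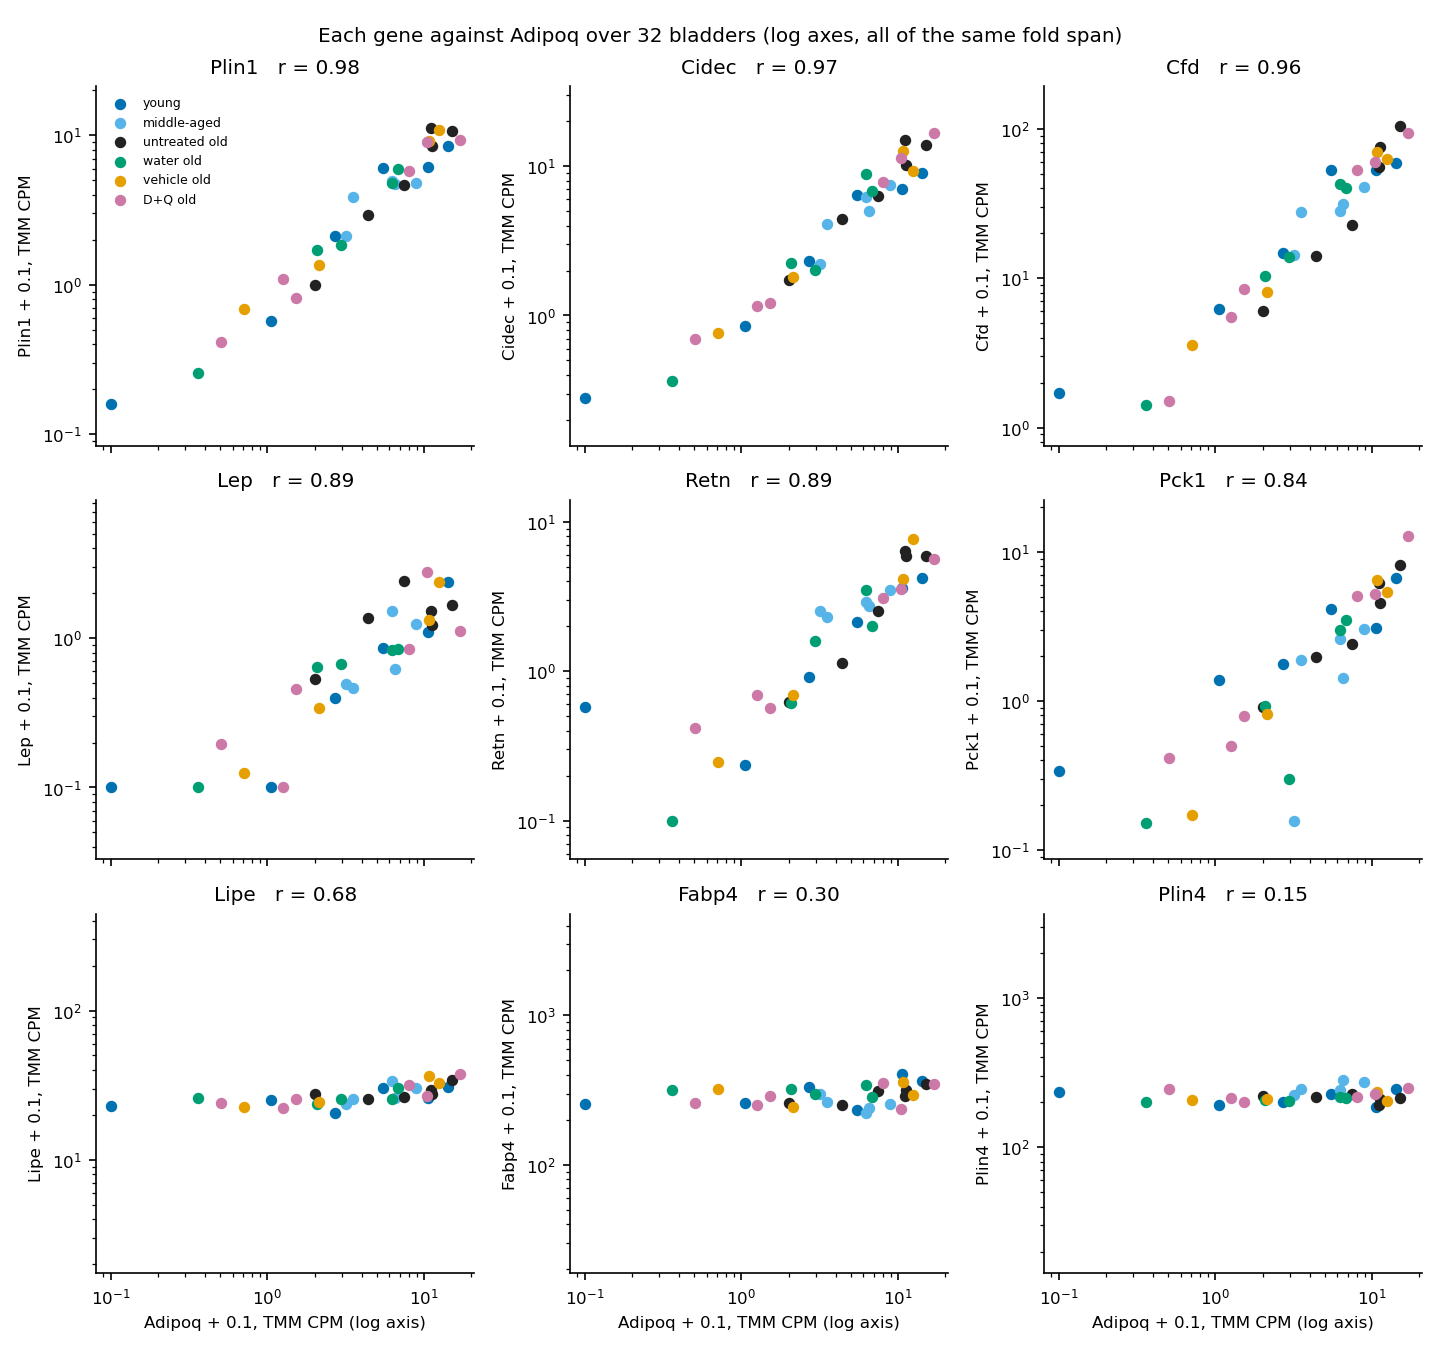
Each of 9 genes against Adipoq over 32 bladders (TMM-scaled CPM plus 0.1, log axes of equal fold span, colours for the 6 groups, Pearson r above each panel). Plin1, Cidec and Cfd lie on a line with r of 0.959 to 0.979, whereas Plin4 and Fabp4 span 1.5-fold and 1.81-fold across the whole range of Adipoq, with r of 0.154 and 0.301.

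Depth moved with the level of Adipoq, and the shallowest libraries included some of the lowest values. Over the 32 bladders log2 total counts and log2 Adipoq correlated with r = 0.55 (permutation p = 0.00165, two-sided) and rho = 0.327 (permutation p = 0.0693), the only relation with depth that was computed. Without the 2 bladders farthest from the median depth, r was 0.346, and with values centred on group means 0.535. Young bladder 3 (15088372 counts) had 0.949 CPM, young bladder 4 (16881598 counts) none, and water-treated old bladder 1 (18697996 counts) 0.263 CPM. Vehicle-treated old bladder 4 (21252772 counts) had 10.6 CPM, however, and D + Q-treated old bladder 2 (31040418 counts) only 0.410 CPM. The part of depth in the spread was not tested.

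Markers of some other cell types in the bladder moved with Adipoq to a lesser degree. With group means removed, Adipoq correlated over the 32 bladders with the mean of 6 skeletal muscle markers (r = 0.617), 8 capillary endothelium markers (r = 0.589) and 8 macrophage markers (r = 0.424). It did so weakly with 6 mesothelium markers (r = 0.203), 12 adipocyte precursor genes (r = 0.147), 8 urothelium markers (r = -0.158) and 8 detrusor markers (r = -0.0461). Of single markers none reached r of 0.7 with Adipoq, the highest being Tnnt3 of fast skeletal muscle at 0.633. The summed skeletal muscle markers stood at 320.8 to 1140 CPM per bladder, with Myh4, which marks fast fibres, at no more than 0.224 CPM and at 0 in the lowest bladder. Acta1 (median 362.3 CPM) and Ckm (107.4 CPM) were the most abundant of them, with r of only 0.192 and 0.204 with Adipoq. Tnnt3, Mylpf and Atp2a1 had medians of 12.6, 1.27 and 0.972 CPM, so the sum says little about the markers that followed Adipoq most. The summed endothelial markers stood at 282.2 to 383.5 CPM and the summed macrophage markers at 679.2 to 1245 CPM, with none at 0. Their part in the spread of the adipocyte genes was not tested.

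Genes that were most like the 10 were sought among 15045 genes with a mean of at least 1 CPM, by their correlation with the mean of the standardised members after removal of group means. The 12 closest were Cyp2e1 (r = 0.910), Slc7a10 (0.898), Lgals12 (0.889), Gpd1 (0.827), Hp (0.808), Lpl (0.806), Slc1a3 (0.802), Sult5a1 (0.789), Nnat (0.783), Pnpla3 (0.770), Serpina3c (0.764) and Vit (0.760). The median over all genes compared was 0.00666, and 21 genes had r of at least 0.7. Cyp2e1, a cytochrome P450, ranged from 3.71 to 28.3 CPM over the bladders, and Lpl, the lipase that frees fatty acids from circulating triglyceride, from 17.9 to 137.3 CPM.

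Of 18 other genes of white adipocytes, 7 had r of at least 0.7 with Adipoq once group means were removed. They were Tshr (0.896), the thyrotropin receptor, Acvr1c (0.887), an activin-type receptor, Lgals12 (0.879), a galectin of the droplet, Orm1 (0.845), an acute phase protein, Lpl (0.806), Adig (0.756), a small adipogenesis protein, and Trarg1 (0.701), a regulator of glucose transporter traffic. Cd36, a fatty acid transporter, reached 0.672. The master regulators of the fat cell were abundant and did not follow, in whole-bladder RNA that does not show which cells made them. Pparg stood at 68.7 to 112.8 CPM with r = 0.0268, Cebpa at 40.1 to 80.1 CPM with r = 0.203, and the insulin-responsive glucose transporter Slc2a4 at 88.1 to 168.4 CPM with r = -0.20. The median r of the list was 0.524, against 0.00772 over all genes with a mean of at least 1 CPM, 27 of which reached 0.7. These 27 include Plin1, Cidec, Cfd, Retn and Pck1. The list also holds scarcer genes, so the 2 sets are not of like level. Tshr, Acvr1c, Orm1 and Adig had medians of only 0.387, 0.424, 0.265 and 0.589 CPM, and the first 3 had a lowest value of 0.

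Most other genes of lipid metabolism did not follow Adipoq. Of 18 genes of triglyceride synthesis and breakdown 1 had r of at least 0.7, Gpd1 (0.772), which makes glycerol phosphate, and the median was 0.0867. Of 15 genes of fatty acid synthesis, 1 reached it, Mlxipl (0.704), a carbohydrate-sensing transcription factor, and the median was 0.00418, with Fasn, the fatty acid synthase, at 0.101. No gene passed in the lists of 10 brown adipocyte genes, 12 adipocyte precursor genes and 10 genes of insulin and leptin response. Of the brown adipocyte genes, Ucp1, the uncoupling protein that defines brown fat, had at most 17 counts, Elovl3 and Otop1 at most 2 and Zic1 at most 10 in any bladder.

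**Figure D3:**
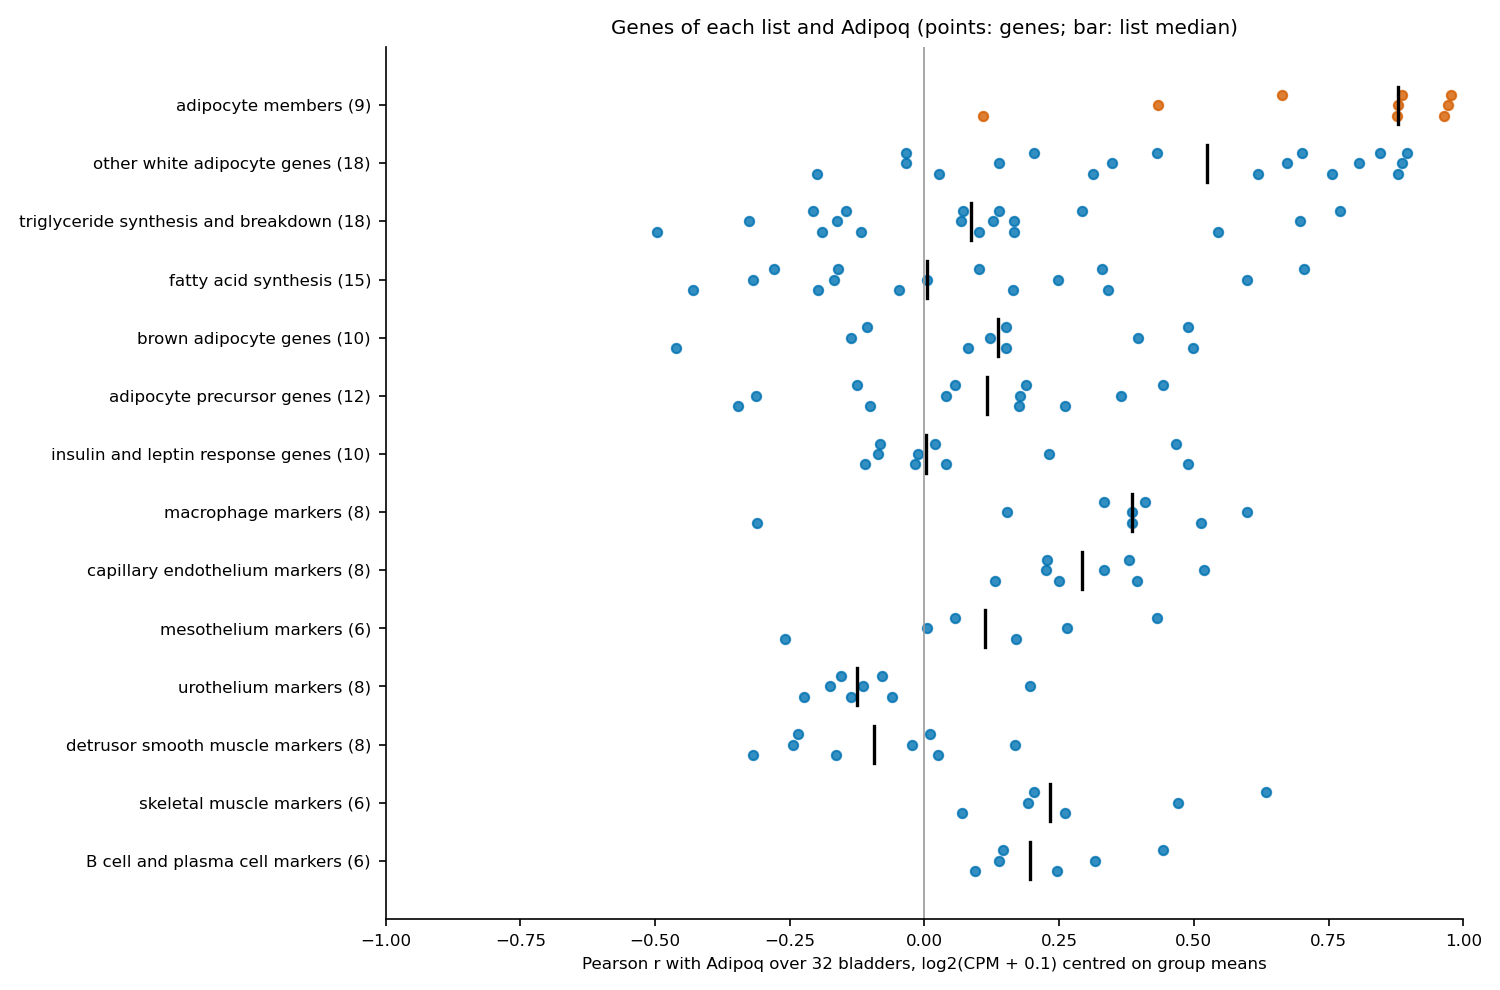
Pearson r with Adipoq over 32 bladders, on log2(CPM + 0.1) centred on group means, for each gene of 14 lists (points), with the list median as a bar and the number of genes in brackets. Of the 9 adipocyte genes 6 lie at or above 0.7, as do 7 other white adipocyte genes, while urothelium and detrusor markers lie between -0.318 and 0.195.

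Between middle-aged and young bladders none of the 10 genes passed an adjusted p of 0.05 in edgeR's quasi-likelihood test, where 10.8% of 16754 genes did, and 1 had an unadjusted p under 0.05. DESeq2, limma and the likelihood ratio test of edgeR called none of the 10 either. The log2 fold changes of middle-aged over young bladders ran from -0.76 for Pck1 (95% interval -2.15 to 0.63) to 0.46 for Retn (-0.60 to 1.51). Adipoq differed by -0.07 (-1.47 to 1.34), so that a rise or a fall of more than 2-fold was within its interval. The steady genes were bounded more closely. Plin4 stood at 251.7 ± 23.5 CPM (SD, n = 5) in middle-aged against 213.9 ± 24.0 CPM (SD, n = 6) in young bladders, a log2 fold change of 0.23 (0.05 to 0.40, adjusted p = 0.0885), and passed in the fit of all 6 groups together (0.21, adjusted p = 0.0296). Fabp4 differed by -0.28 (-0.57 to 0.006, adjusted p = 0.193).

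Between untreated old and middle-aged bladders Plin4 was the only member called, and it was lower in old bladders. Middle-aged bladders had 244.6, 239.6, 272.0, 222.9 and 279.6 CPM of Plin4, and untreated old bladders 191.0 to 226.7 CPM with a median of 215.2. The groups overlapped at a single point, where untreated old bladder 4 (226.7 CPM) exceeded middle-aged bladder 4. Means were 251.7 ± 23.5 CPM (SD, n = 5) and 213.1 ± 12.3 CPM (SD, n = 6), and Plin4 fell by 0.22 on the log2 scale (SE 0.061, 95% interval -0.35 to -0.09, adjusted p = 0.0203). This is 1 call among 10 genes tested, where 11.0% of 17156 genes were lower and 24.0% passed in either direction. The call was lost without middle-aged bladder 3 (log2 fold change -0.19, adjusted p = 0.0519) or without middle-aged bladder 5 (-0.18, adjusted p = 0.0508), and with the replicate number as a block (-0.22, adjusted p = 0.0852). Detrusor markers moved in the same comparison, with 3 of 8 lower and none higher in old bladders, as did urothelium markers, with 3 of 8 lower. The summed detrusor markers stood at 27740 to 38940 CPM in middle-aged and 28030 to 32400 CPM in untreated old bladders, and the summed urothelium markers at 4193 to 4923 and 3943 to 4233 CPM. Plin4 itself correlated with the means of these lists at r = -0.0707 and r = 0.242 over the 32 bladders with group means removed, and their part in its difference was not tested.

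The other 9 genes had positive log2 fold changes in untreated old over middle-aged bladders, and none passed. Fabp4 came closest, with 261.6, 222.5, 254.5, 299.7 and 240.0 CPM in middle-aged and 249.9 to 346.6 CPM (median 299.6) in untreated old bladders, a log2 fold change of 0.23 (SE 0.089, 95% interval 0.04 to 0.42, adjusted p = 0.0792). DESeq2 called it (0.23, adjusted p = 0.0438), and so did edgeR without middle-aged bladder 4 (0.29, adjusted p = 0.0329) or without untreated old bladder 2 (0.27, adjusted p = 0.0371). Macrophages and capillary endothelium also make Fabp4. Of 8 macrophage markers 6 were higher in old bladders, where 13.0% of all genes were. Their summed levels were 913.7 to 1245 CPM against 721.7 to 829.8 CPM. The summed endothelial markers stood at 293.7 to 326.1 CPM in untreated old and 323.5 to 349.7 CPM in middle-aged bladders. With group means removed, Fabp4 correlated over the 32 bladders with the mean of the macrophage markers at r = 0.433. Among the marker lists compared, r was highest for detrusor (0.472) and lowest for capillary endothelium (0.169). The part of these cells in the difference of Fabp4 was not tested.

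Of the varying genes, Adipoq averaged 8.41 ± 4.84 CPM over the 6 untreated old and 5.58 ± 2.37 CPM over the 5 middle-aged bladders (mean ± SD), a log2 fold change of 0.62 (-0.32 to 1.56, adjusted p = 0.338). Those of the other 6 were 0.85 for Lep (-0.05 to 1.75), 0.73 for Cfd (-0.51 to 1.98), 0.46 for Retn (-0.62 to 1.54), 0.71 for Plin1 (-0.35 to 1.77), 0.82 for Cidec (-0.20 to 1.84) and 1.22 for Pck1 (-0.16 to 2.60). Lipe, by contrast, differed by 0.05 (-0.17 to 0.27). The median over the 10 was 0.66, against -0.005 over all genes tested, but because 7 of them moved together from bladder to bladder their shared sign is not that of independent genes. With the Adipoq level of each bladder as a covariate, Plin1, Cfd and Retn took the opposite sign (-0.11, -0.318 and -0.429). Lep, Cidec and Pck1 kept theirs. Adipoq is itself 1 of the 7 genes that moved together, so this fit takes out what the others share with it.

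None of the 10 genes was called between untreated old and young bladders, where 25.1% of 16873 genes passed, and none had an unadjusted p under 0.05. DESeq2, limma and the likelihood ratio test also called none of the 10. Adipoq differed by 0.55 (95% interval -0.95 to 2.05) and Cidec, the highest, by 0.97 (-0.41 to 2.34). Plin4 stood at 213.1 ± 12.3 CPM (SD, n = 6) and 213.9 ± 24.0 CPM (SD, n = 6), so that of these 3 groups the middle-aged one had the highest mean. The lowest of the 10 log2 fold changes was that of Fabp4, at -0.06 (-0.35 to 0.23).

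**Figure D4:**
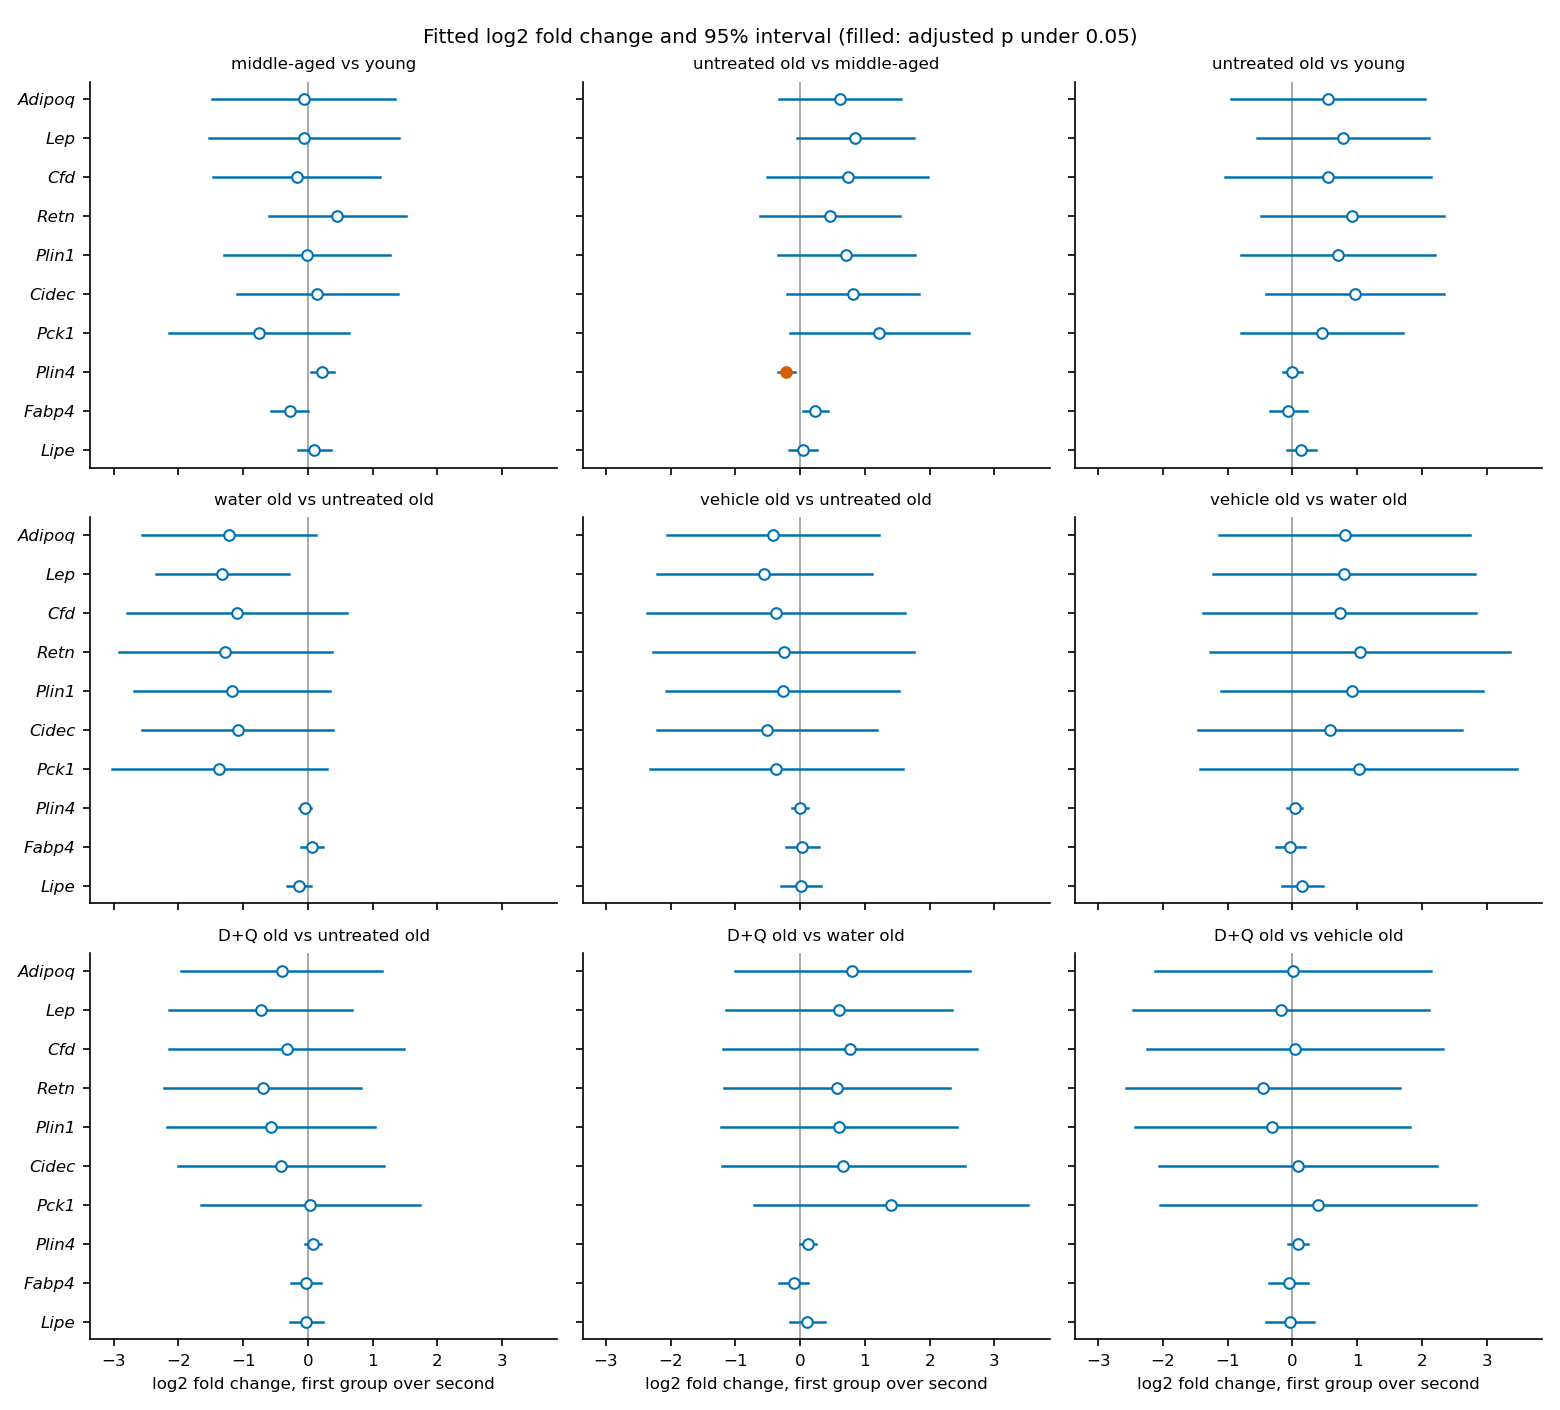
Fitted log2 fold change (first group over second) of each of the 10 genes in 9 comparisons, with 95% intervals as bars and a filled point where the adjusted p was under 0.05. Plin4 in untreated old against middle-aged bladders is the only filled point, and the 7 varying genes have intervals reaching 0.901 to 2.45 log2 units to either side.

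The lists of related genes contained calls between the age groups, but few among genes that followed Adipoq. Of 17 other white adipocyte genes tested between middle-aged and young bladders, 1 rose and 1 fell, where 4.96% and 5.85% of all genes did. Lpl fell by 0.89 on the log2 scale (adjusted p = 0.0320) and Pde3b, the phosphodiesterase through which insulin restrains lipolysis, rose by 0.30 (adjusted p = 0.0128). Triglyceride genes gave 2 higher and 0 lower of 18, the droplet proteins Plin5 (0.74) and Cidea (0.61). Fatty acid synthesis genes gave 3 higher and 2 lower of 15, led by Scd1 (0.55), the stearoyl desaturase, Srebf1 (0.40), Insig1 (-0.24) and Elovl5 (-0.22). Of 5 brown adipocyte genes tested 2 rose, the thermogenic regulators Ppargc1a (0.62) and Prdm16 (0.51), and of 12 precursor genes 2 fell, Pi16 (-0.58) and Cd34 (-0.36). In the insulin and leptin list 1 of 10 rose, the adiponectin receptor Adipor2 (0.16), and 1 fell, Foxo1 (-0.18). With a single bladder left out, the calls of Pde3b, Scd1, Ppargc1a, Prdm16 and Cd34 held in each of 11 fits, whereas those of Lpl, Insig1, Pi16, Foxo1 and Adipor2 were lost in 7, 7, 8, 9 and 9 of them, and those of Plin5, Cidea, Srebf1 and Elovl5 in 1, 3, 6 and 4. Scd1 and Cidea also lost theirs in the fit of all 6 groups together, and Lpl under limma.

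Between untreated old and middle-aged bladders, 2 of 18 other white adipocyte genes rose and 1 fell, where 13.0% and 11.0% of all genes did. Slc2a4 fell by 0.55 (adjusted p = 3.82e-05), and Cd36 and Pde3b rose by 0.33 and 0.16 (adjusted p = 0.0421 and 0.0196). Of the triglyceride genes 2 of 18 rose, G0s2 (0.32), an inhibitor of adipose triglyceride lipase, and Plin2 (0.20), while 2 fell, Cidea (-0.86) and Dgat2 (-0.19), the last enzyme of triglyceride synthesis. Fatty acid synthesis genes fell in 5 of 15 cases and rose in none, led by Acacb (-0.32), Srebf1 (-0.30), Scd2 (-0.22) and Elovl6 (-0.16). No brown adipocyte gene of 5 passed. Precursor genes were mixed, with Ly6a (0.83), Icam1 (0.61) and Ebf2 (0.50) higher and Zfp423 (-0.34) among 2 that were lower of 12. Socs3 (1.09), a feedback inhibitor of leptin signalling, and the leptin receptor Lepr (0.25) rose among 10 genes of insulin and leptin response. Cd36, Plin2 and Lepr lost their calls in 7, 7 and 8 of 11 fits with a bladder left out, and the others named here kept theirs in all 11. In the fit of all 6 groups together, however, Pde3b, G0s2, Dgat2, Acacb, Scd2 and Elovl6 also lost their calls, as did Pde3b under limma and Scd2 with the replicate block, so that of the 4 fatty acid synthesis genes named only Srebf1 was called in every fit run.

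Between untreated old and young bladders, where 12.6% of all genes were higher and 12.4% lower, 3 of 18 other white adipocyte genes rose and 2 fell. Lpl (-0.84) and Slc2a4 (-0.60) fell, and Pde3b (0.45) and Npr3 (0.41), a natriuretic peptide receptor, rose. Plin5 (0.55) and Hilpda (0.28), a lipase inhibitor, rose among 18 triglyceride genes and none fell. Of 15 fatty acid synthesis genes 3 rose and 2 fell, led by Scd1 (0.64), Insig1 (-0.32), Elovl5 (-0.30) and Fasn (0.23). Ppargc1a (0.46) and Prdm16 (0.35) rose among 5 brown adipocyte genes tested. Of 12 precursor genes 4 rose and 4 fell, led by Pi16 (-0.82), Ebf2 (0.69), Ly6a (0.50) and Cd34 (-0.49), and of 10 insulin and leptin genes Lepr (0.39) and Irs2 (0.30) rose and Akt2 (-0.12) fell. With a bladder left out, Npr3, Plin5, Fasn and Irs2 lost their calls in 8, 8, 7 and 8 of 12 fits, Lpl in 1 (without young bladder 6, adjusted p = 0.0534), and Ly6a and Akt2 in 4 and 3. Fasn and Prdm16 also lost theirs in the fit of all 6 groups together.

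Markers of other cells in the bladder were also counted, and several counts were near the share of all genes. Between untreated old and middle-aged bladders, where 13.0% of all genes were higher and 11.0% lower, besides the detrusor, urothelium and macrophage markers given above, 6 of 6 B cell and plasma cell markers were higher, 1 of 8 capillary endothelium markers was higher and 3 lower, 1 of 5 skeletal muscle markers tested was lower, and none of 6 mesothelium markers passed. Between middle-aged and young bladders, where 4.96% of all genes were higher and 5.85% lower, the calls were 4 of 6 B cell and plasma cell markers and 1 of 8 urothelium markers higher, and 2 of 8 endothelial and 1 of 5 skeletal muscle markers lower. Between untreated old and young bladders, where 12.6% were higher and 12.4% lower, 6 of 6 B cell and plasma cell, 4 of 8 macrophage, 1 of 8 urothelium and 1 of 8 endothelial markers were higher, and 5 of 8 endothelial, 4 of 8 detrusor and 3 of 5 skeletal muscle markers were lower.

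Water-treated old bladders had the lowest mean of each of the 7 varying genes among the old groups, though none of the 10 genes passed against untreated old bladders. Water-treated old bladders had 3.59 ± 2.77 CPM of Adipoq (SD, n = 5) against 8.41 ± 4.84 CPM (SD, n = 6) in untreated old bladders, a log2 fold change of -1.21 (95% interval -2.55 to 0.13, adjusted p = 0.362). Lep was 0, 0.748, 0.568, 0.730 and 0.540 CPM in the water-treated and 0.434 to 2.32 CPM (median 1.35) in the untreated old bladders, with a log2 fold change of -1.32 (-2.35 to -0.29). Its interval excluded 0, and its adjusted p was 0.200, with 1 of the 10 at an unadjusted p under 0.05. The values of the remaining varying genes were -1.10 for Cfd (-2.79 to 0.60), -1.27 for Retn (-2.92 to 0.37), -1.17 for Plin1 (-2.68 to 0.34), -1.08 for Cidec (-2.55 to 0.39) and -1.37 for Pck1 (-3.03 to 0.29). Plin4 (-0.04, -0.14 to 0.05), Fabp4 (0.07, -0.11 to 0.24) and Lipe (-0.14, -0.32 to 0.05) were nearly level. Of 17250 genes tested 1.0% passed, and DESeq2, limma and the likelihood ratio test called none of the 10. With the Adipoq level as a covariate, which takes out what these genes share with Adipoq, Plin1, Cidec, Cfd and Retn took the opposite sign. Their values were 0.278, 0.175, 0.595 and 0.354, and Lep and Pck1 kept their sign. Water-treated old bladder 1 was the shallowest library of both groups, and without it Adipoq stood at -0.94 and Lep at -1.08.

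Of the 4 vehicle-treated old bladders, 2 had low and 2 had high levels of each of the 7 varying genes. Pck1, for example, stood at 0.0731, 0.722, 5.27 and 6.34 CPM. Against untreated old bladders, none of the 10 passed, where 0.00% of 17440 genes did at an adjusted p under 0.05 and 1464 at an unadjusted p under 0.05, but DESeq2 called 123 and the likelihood ratio test 19, none of them among the 10. Log2 fold changes ran from -0.55 for Lep (95% interval -2.21 to 1.10) to 0.03 for Fabp4 (-0.22 to 0.29), with Adipoq at -0.42 (-2.06 to 1.22). Against water-treated old bladders, where 0.00% of 17294 genes passed, 322 had an unadjusted p under 0.05 and DESeq2 and the likelihood ratio test called 0, they ran from -0.04 for Fabp4 (-0.26 to 0.19) to 1.04 for Retn (-1.27 to 3.35), with Adipoq at 0.81 (-1.13 to 2.75).

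D + Q-treated old bladders did not differ from any other old group in these genes beyond the spread between bladders. Of Adipoq they had 10.37, 0.410, 7.88, 1.41, 1.16 and 16.8 CPM, so that 3 bladders lay within or above the range of the untreated old group and 3 below the lowest untreated old bladder. The same 3 bladders (replicates 2, 4 and 5) had the lowest Cidec, Cfd and Plin1 of the group. Against untreated old bladders, log2 fold changes ran from -0.72 for Lep (95% interval -2.14 to 0.69) to 0.08 for Plin4 (-0.05 to 0.20), with Adipoq at -0.41 (-1.96 to 1.14). Against water-treated old bladders they ran from -0.10 for Fabp4 (-0.32 to 0.13) to 1.41 for Pck1 (-0.71 to 3.52), with Adipoq at 0.81 (-1.01 to 2.62). Against vehicle-treated old bladders, the comparison that differs by the drugs alone, they ran from -0.45 for Retn (-2.57 to 1.66) to 0.40 for Pck1 (-2.04 to 2.84), with Adipoq at 0.006 (-2.13 to 2.14). An effect of 4-fold in either direction was thus within the interval of Adipoq, while that of Plin4 spanned -0.07 to 0.24 and that of Fabp4 -0.36 to 0.23.

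None of the 10 genes was called after D + Q in any of these 3 comparisons, in which 0.00% of 17037, 17161 and 17267 genes passed edgeR's quasi-likelihood test. The numbers with an unadjusted p under 0.05 were 2200, 1342 and 722. DESeq2 called 189, 66 and 13 genes and the likelihood ratio test 22, 27 and 3, none of them among the 10. The comparisons of water, vehicle and D + Q with untreated old bladders share the same 6 untreated bladders and are therefore not independent. No gene of the 13 other lists passed in any comparison among the 4 old groups.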

How the data were processed

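Total RNA libraries of 32 whole bladders (Illumina TruSeq Stranded Total RNA) were sequenced, and per the labels reads were aligned to mm10 with STAR 2.7.3 and assigned to genes with Subread featureCounts. The strand setting of the counting was not given in the sources used here. The authors deposited raw counts of 32285 genes, 127 of them with no symbol, and a second table of log2 values that the authors headed TPM. These deposited log2 values equal log2 of (count + 1) per base of exon length, scaled so that each column sums to 100000 on the linear scale. They were multiplied by 10 after back-transformation to give the TPM of the limma fits. The TPM levels given in the Results were computed from the raw counts and exon lengths, without the added count. Groups came from the sample titles, and no pair of libraries within a group was identical.

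Each comparison used only the bladders of its groups. Counts were tested with edgeR 4.0.16 in R 4.3.3 (filterByExpr, TMM factors, quasi-likelihood F test), p-values were adjusted by Benjamini-Hochberg over all genes tested, and an adjusted p under 0.05 was called. CPM over all 32 bladders used TMM factors and log2(CPM + 0.1). Alternatives were DESeq2 1.42.0, limma 3.58.1 on log2(TPM + 1) and log2(TPM + 0.1), and other factors, filters, fits and samples. For simulated counts, untreated old against middle-aged (17031 genes), the fit recovered 98 of 100 genes changed by 1 log2 unit, with 6 false calls. For vehicle against water (17121 genes) it recovered 92 of 100, with 11 false calls. The changed genes were drawn at random from well-expressed genes, so these rates do not apply to the 7 varying genes. In the same comparisons the 95% intervals of those 7 reached 0.901 to 1.38 and 1.94 to 2.45 log2 units to either side, respectively. Permutations (100000 draws) used scipy 1.17.1, and plots matplotlib 3.10.9. Promoters and motifs came from RefSeq, which held an entry for 9 of the 10 genes.

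The 10 genes, the lists and the tests were chosen with earlier results of these data known. In each list of adipocyte or lipid genes up to 4 called genes with the largest changes are named, markers of other cell types are given by counts, and the genes most like the 10 are the 12 with the highest correlation with their mean.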

Additional observations from a re-analysis of the deposited data

Results flagged for a closer look

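The 10 genes in 6 groups gave 60 sets of bladder values, of which 2 held a bladder standing apart from the others of its group, and chance alone flags about 1 in 20 such sets. Plin4 stood at 232.3 CPM in vehicle-treated old bladder 4, where the nearest of the other 3 bladders had 208.5 CPM, a gap of 0.862 of the range of the group. Lep stood at 0.0 CPM in water-treated old bladder 1, the shallowest library of that group, where the nearest other bladder had 0.540 CPM, a gap of 0.723 of the range.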

How the results depend on the processing

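Over the 9 comparisons and 11 other settings the number of the 10 genes called equalled the reported one in 96 of 99 fits, and in 93 of 97 fits with a bladder left out. The fit of all 6 groups together called 1 gene between middle-aged and young bladders (Plin4), and DESeq2 called 2 between untreated old and middle-aged bladders (Plin4 and Fabp4). By the replicate numbers of the sample titles no consistent pairing was seen. Same-numbered bladders deviated from their group means with correlations between -0.37 and 0.26, and in no comparison were all pairs over 0.1. Bladders that correlated best with their own number were 3 of 5 for untreated old against middle-aged and 3 of 6 for untreated old against young. In the other comparisons they were 0 to 2. The authors' own numbers differ for some middle-aged, vehicle-treated and water-treated bladders, and pairing by those numbers was not tested. For untreated old against middle-aged bladders 0 genes were called with the replicate number as a block, and the block changed no other count of the 10. Leaving out a bladder gave 0 to 2 calls in that comparison. Of 943 values of the 10 genes under other settings 78 had the opposite sign, and of 970 with a bladder left out 96 did. The 78 fell in 42 of the 90 pairs of gene and comparison, so many directions changed in at least 1 setting. The largest reported log2 fold change among these pairs was 1.27 in absolute size, and 0.8 among those that changed sign with a bladder left out. The cause was not tested.

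Adipoq in middle-aged over young bladders changed sign under limma (0.684 with a pseudocount of 1, 1.08 with 0.1) and with the replicate block (0.885), and ranged from -0.317 to 0.425 with a bladder left out. Between untreated old and middle-aged bladders the Adipoq covariate gave -0.11 for Plin1, -0.318 for Cfd and -0.429 for Retn, the replicate block -0.012 for Cfd, -0.086 for Retn and -0.006 for Lipe, limma with 0.1 gave -0.061 for Retn, and Lipe ranged from -0.016 to 0.134 with a bladder left out. Between water-treated and untreated old bladders the covariate gave 0.278 for Plin1, 0.175 for Cidec, 0.595 for Cfd and 0.354 for Retn, and between vehicle and water -0.12 for Retn. With a bladder left out Fabp4 ranged from -0.134 to 0.033 in untreated old over young, from -0.067 to 0.123 in vehicle over untreated old and from -0.133 to 0.059 in vehicle over water. For D + Q over water the block gave -0.286 for Adipoq. For D + Q over vehicle Adipoq was -0.011 with DESeq2 and the likelihood ratio test, -0.134 and -0.175 with limma and -0.72 with the block, Pck1 was -0.157 with the block, and with a bladder left out Adipoq ranged from -0.583 to 0.571, Retn from -0.985 to 0.592 and Pck1 from -0.415 to 0.986.

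Over all genes, the 1811 calls between middle-aged and young bladders became 2858 in the fit of all 6 groups, 711 with the block and 2800 with the covariate. The 4110 between untreated old and middle-aged bladders became 2519 in the fit of all 6 groups. The 173 between water-treated and untreated old bladders became 693 with DESeq2, 99 with every gene of at least 1 count tested, 1 with the covariate and 0 with limma, the block or all 6 groups. The replicate block called 1 gene between D + Q and water. Of the named genes of other lists none changed sign in 1060 values under other settings or 1105 with a bladder left out, and 101 and 182 of these missed the threshold. Low counts limit Lep most, which had at most 3 counts in 6 bladders.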
